A study of Mus musculus with 18 samples.

Results

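Adult liver was compared between offspring of mouse dams that were fed high protein while suckling and offspring of dams on the control diet throughout, at postnatal day 150. The comparison was defined by the array titles and not by any measured value: 3 arrays of the lactation group, numbered 4 to 6, were set against 3 control arrays, 6 of the 18 arrays of the series. The animals were of the outbred line DUK, a cross of several outbred and inbred lines. Their dams received isoenergetic diets with 20% protein by weight (control) or 40% (high protein). The control group had the control diet in pregnancy and in lactation, and the lactation group had the control diet in pregnancy and high protein in lactation. Beside these stood 3 arrays each of offspring exposed in pregnancy (day 150), of offspring exposed in lactation (day 21) and of day 21 controls. Each array held pooled liver RNA, so that it averaged animals and hid their individual spread. The sources disagree on the pool size: 3 animals by the sample descriptions, 3 to 4 RNA samples by the extraction protocol, and 4 to 5 animals per group and day, from different litters, by the series design. For all arrays 12 hours of light were recorded. The offspring's diet after weaning, their sex and the time of day at sampling were not given in the sources used here.

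A suckling mouse receives its nutrients through milk, and a dam's diet in that period can alter the amount and composition of that milk. The liver handles the amino acid load of the body: it breaks down amino acids, turns their nitrogen into urea, and makes glucose from their carbon. It also holds a circadian clock, in which the transcription factors Arntl (Bmal1) and Clock drive the Period and Cryptochrome genes, whose proteins repress them in turn. Clock output factors such as Dbp, Tef and Hlf set daily rhythms of metabolic enzymes, and feeding time is a strong setting cue for the liver clock.

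Signals are deposited intensities on an arbitrary linear scale, on which every array has the same trimmed mean of 500. Of 45101 probe sets, 22519 passed a filter on mean signal (at or above 57.5), and 11018 genes were tested through their brightest probe set. Differences are given as log2 values with limma's moderated standard error (SE), lactation group minus control unless stated. A gene is called if its Benjamini-Hochberg adjusted p from limma is under 0.05.

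The 6 arrays were much alike: pairwise Pearson correlations of log2 signal, across genes, lay between 0.962 and 0.980. Replicate 4 of the lactation group stood apart, with all 5 of its correlations at 0.970 or below. It also carried Xist, a noncoding RNA that female cells make from their silenced X chromosome: its signal was 11644 on 1 probe set, while the other 5 arrays lay between 28 and 93. Y-linked transcripts were present on the same array, with Eif2s3y at 1990.4 against 2112 to 2917 on the other 5. Values without it are given where they move a result. Control replicate 2 of day 21 was the other array of the series with Xist, at 7343 on the same probe set. The 3′/5′ ratio of the Gapdh control probe sets, a sign of RNA quality, was 1.73, 1.76 and 1.55 in the lactation group and 1.30, 1.79 and 1.35 in control; that of beta-actin was 5.80, 5.81 and 5.45 against 4.13, 6.38 and 4.06. Both groups expressed hepatocyte markers at the top of the signal range, Alb at a mean of 34884 and 33333. The other cell type lists had overlapping summed signals in both groups, apart from B and plasma cell markers. Of these, 6 of 13 on the array were measured, all 6 with positive differences (5 without replicate 4), and the sum was 1279 to 1496 in the lactation group and 725 to 1102 in control. None of the 6 was called. Offspring exposed in pregnancy, set against the same day 150 controls, also had all 6 positive. Their median was 0.64, against 0.53 in the lactation group. In pooled bulk liver, fewer cells of a type and less RNA per cell cannot be told apart.

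Few differences between the adult livers passed the test. 1 gene of 11018 was called, which is 0.00908%: Mycn, which encodes N-Myc, a transcription factor of the Myc family known from growing and embryonic tissue. Its signal was 67.4, 74.3 and 114 in the lactation group and 4.3, 5.8 and 13 in control. The control arrays all lay far below, without overlap. The difference was 3.59 (SE 0.47, adjusted p 0.0041), against control signals far below the filter, so that no fold is given. It was as large without replicate 4, at 3.74.

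Several measurements bear on the size of the Mycn difference. With a mean log2 signal of 6.04, the probe set passed the filter only narrowly. The same probe set gave 68.5, 78.9 and 85.7 in the pregnancy group at day 150, and 59.4, 151 and 93.4 after lactation exposure and 138, 257 and 83.5 in control at day 21. Among these 15 arrays the 3 adult controls were the low ones. The other 2 Mycn probe sets lay below the filter and were not tested. On both of them the signals overlapped. On 1 they were 57.6, 33.7 and 10.9 against 53.8, 5.00 and 59.6 in control. On the other they were 84.1, 32 and 25.5 against 50, 39.5 and 33.7 in control. With 50 added to every signal, the difference shrank to 1.22 and was no longer called (adjusted p 0.358). In a fit of the 6 compared arrays alone the adjusted p was 0.557.

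A count near 0 is not a measure of likeness, so the intervals are given. For 9217 genes (83.7%) the 95% interval of the log2 difference lay within -1 to 1, so that a change of 2-fold or more lay outside it. For 4310 genes (39.1%) it lay within -0.5 to 0.5. The median SE was 0.189. Point differences of over 2-fold were seen for 173 genes, and the median over all genes was 0.0024, with 5553 genes positive. At an unadjusted p under 0.05, 481 genes were higher (4.37%) and 370 lower (3.36%). For 818 genes (7.42%) all 3 lactation arrays lay above all 3 controls, and for 692 (6.28%) they lay below. After Mycn the next smallest adjusted p was 0.316.

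**Figure D1:**
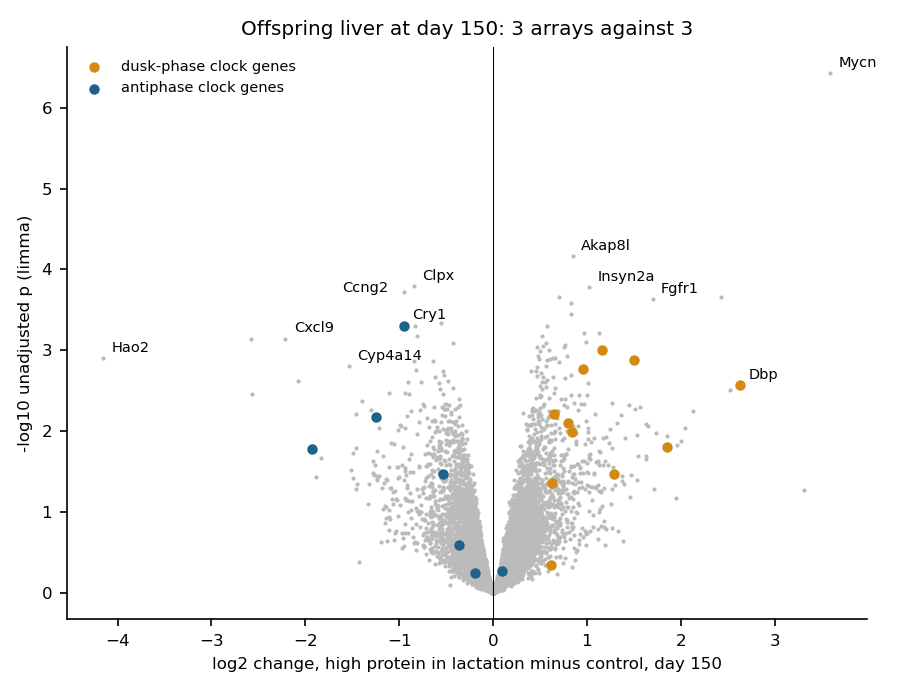
Log2 difference between the lactation group and control at day 150 (x axis) against -log10 of the unadjusted limma p (y axis) for the 11018 genes tested, with clock genes coloured. Mycn stands alone at the top right with a difference of 3.59, and the dusk-phase clock genes all lie right of 0.

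Among genes whose arrays did not overlap, the 12 with the smallest p in each direction were taken, and apart from Mycn none passed the adjusted threshold. Akap8l, a nuclear anchoring protein of the A-kinase family, had signals of 764, 732 and 587 against 328, 390 and 441 in control, a difference of 0.85 (SE 0.17). Insyn2a, a protein of inhibitory synapses, had 394, 419 and 426 against 142, 250.2 and 236, a difference of 1.02 (SE 0.22). The pregnancy arrays of Akap8l, at 424 to 528, reached from the upper end of the controls to between control and the lactation arrays. Those of Insyn2a, at 204 to 230.0, lay within the control range. Fgfr1, a receptor for fibroblast growth factors, had 148, 118 and 143 against 39.7, 23.2 and 78.8. Its difference was 1.70 (SE 0.37). Pde7b, which degrades cyclic AMP, had a difference of 0.71 (SE 0.15), Sbk1, a kinase, 0.83 (SE 0.18), and Efhd2, a calcium-binding protein, 0.83 (SE 0.19). For Fgfr1, Pde7b, Sbk1 and Efhd2, the pregnancy group, which was set against the same 3 controls, differed from them by 1.59, 0.79, 0.99 and 0.83. Ndufaf4, an assembly factor of respiratory complex I, had a difference of 0.57 (SE 0.14). Bcl9, a coactivator of Wnt signalling, had 1.13 (SE 0.27), Gcfc2 0.97 (SE 0.24) and Fam160b1 0.52 (SE 0.13).

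Without control replicate 3, Fgfr1 was called (difference 2.16, adjusted p 0.048). Without lactation replicate 6, Sbk1 was called at 1.06 and Pls1, an actin bundling protein, at -3.00 (adjusted p 0.025 for both). Without control replicate 1, Gnat1 was called at 2.43 (adjusted p 0.0049) and LOC102631979 at 3.29 (adjusted p 0.0018), the latter also with the 3′/5′ ratios as covariates at 3.17 (adjusted p 0.047). Its signals were 58.7, 85.4 and 65.8 in the lactation group and 42.3, 4.00 and 12.5 in control, with a difference of 2.43 (SE 0.53) when all arrays were used.

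On the lower side none of the 12 genes was called. Clpx, the mitochondrial unfoldase that feeds the Clp protease, had signals of 7828, 5017 and 7993 against 11033, 12184 and 13598 in control, a difference of -0.85 (SE 0.18). Ccng2, cyclin G2, had 1497, 1386 and 1778 against 2527, 3136 and 3323, a difference of -0.95 (SE 0.20). Sumo3, a ubiquitin-like modifier, had -0.56 (SE 0.13), Med6, a Mediator subunit, -0.84 (SE 0.20), and Gas2, a protein tied to the actin skeleton and growth arrest, -0.81 (SE 0.20). Ndufb6, a complex I subunit, had 9014, 8694 and 9812 against 12214, 12262 and 12554. Here the controls lay very close together, and the difference was -0.43 (SE 0.11). As folds, lactation over control was 0.56, 0.68 and 0.57 for Clpx, Sumo3 and Gas2. Lactation over pregnancy at day 150 was 0.85, 0.94 and 0.80 for the same genes. For Ccng2, Med6 and Ndufb6 the folds were 0.52, 0.56 and 0.74 over control and 0.69, 0.65 and 0.79 over pregnancy.

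Cxcl9, a chemokine induced by interferon gamma that attracts T cells, had the signals 560.1, 440 and 358 against 3134, 582 and 4802. Its difference of -2.21 (SE 0.55) rested on control replicates 1 and 3, as control replicate 2 lay close to the lactation arrays. Without control replicate 2 it was -3.12 and called (adjusted p 0.0038). Cxcl16, another chemokine, had 191, 253 and 243 against 409, 419 and 400.1, a difference of -0.85 (SE 0.22). Ccl5, also a T cell chemokine, had a difference of -1.21 (SE 0.42). In the interferon list, of 36 measured members 25 were negative, the median was -0.16 and 2 passed an unadjusted p under 0.05 in each direction, near the 4.37% higher and 3.36% lower of all genes. The median was -0.02 without lactation replicate 6, -0.04 without control replicate 3 and -0.26 without control replicate 2. T and NK cell markers were measured for 5 of 16 genes on the array, all with negative differences (3 of 5 without replicate 4), at a summed signal of 1119 to 1557 against 1316 to 1986 in control. Their part in the chemokine values was not tested.

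Cyp4a14, a fatty acid omega-hydroxylase induced through PPARα, had 4368, 5554 and 15654 against 21263, 19622 and 22294, a difference of -1.54 (SE 0.41). Replicate 6 lay nearer to control than the others did. The pregnancy arrays, at 7361, 3334 and 15852, spread over the same range. Ccnb1ip1, a ubiquitin ligase that acts on cyclin B1, had 5.70, 45.8 and 24.4 against 90.6, 130.0 and 115. Its difference was -2.58 (SE 0.64), and -1.73 without replicate 4. Ankrd40 had -0.64 (SE 0.17).

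Genes of the circadian clock had larger differences than most, and of opposite sign in its opposite phases, without passing the adjusted test. Dusk-phase genes are those whose transcripts peak late in the day in mouse liver and are driven by Arntl and Clock; antiphase genes peak near the opposite time. Of 13 dusk-phase genes listed, 11 were measured; all 11 had positive differences, from 0.62 to 2.63, with a median of 0.96 against 0.0024 over all genes. Of these 10 passed an unadjusted p under 0.05 and 8 did not overlap with control, where 4.37% and 7.42% of all genes did so in that direction. None was called, the smallest adjusted p being 0.365. Both clock lists were chosen with earlier results of these data known, so their counts beside the shares of all genes are a description only. Of 7 measured antiphase genes, 6 had negative differences, with a median of -0.54; 4 passed an unadjusted p under 0.05 and 2 did not overlap, where 3.36% and 6.28% of all genes did so.

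Promoters of clock genes that hold the element through which the clock acts are shown because most of these genes shared a direction within their phase. They are the 250 bases before the RefSeq gene start, on GRCm38.p6, 5′ to 3′ on the gene's strand. Capitals mark the E-box CACGTG bound by Arntl and Clock, or, for Per3, the D-box TTATGTAA bound by Dbp, Tef, Hlf and Nfil3. The Per1 window is chr11:69098699-69098948 on the plus strand, with its E-box starting 166 bases before the gene start; Tef is chr15:81802423-81802672, plus strand, 127 bases before; Cry1 is chr10:85185055-85185304, minus strand, 60 bases before; and Per3 is chr4:151044666-151044915, minus strand, with D-boxes 205 and 158 bases before.
Per1: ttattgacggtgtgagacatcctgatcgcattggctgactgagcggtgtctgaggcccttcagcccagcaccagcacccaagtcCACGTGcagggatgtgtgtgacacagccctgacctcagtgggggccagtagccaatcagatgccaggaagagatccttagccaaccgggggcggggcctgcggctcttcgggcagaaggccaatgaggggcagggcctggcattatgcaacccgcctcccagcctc
Tef: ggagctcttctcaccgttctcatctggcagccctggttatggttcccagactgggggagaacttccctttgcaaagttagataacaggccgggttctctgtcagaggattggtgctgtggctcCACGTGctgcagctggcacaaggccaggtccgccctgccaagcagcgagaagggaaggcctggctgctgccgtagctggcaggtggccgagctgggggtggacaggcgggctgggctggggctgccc
Cry1: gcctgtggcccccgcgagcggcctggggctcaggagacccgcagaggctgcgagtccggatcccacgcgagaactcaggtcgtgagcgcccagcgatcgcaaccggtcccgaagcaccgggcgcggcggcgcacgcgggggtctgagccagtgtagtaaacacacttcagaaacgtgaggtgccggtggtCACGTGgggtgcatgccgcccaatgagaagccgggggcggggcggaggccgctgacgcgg
Per3: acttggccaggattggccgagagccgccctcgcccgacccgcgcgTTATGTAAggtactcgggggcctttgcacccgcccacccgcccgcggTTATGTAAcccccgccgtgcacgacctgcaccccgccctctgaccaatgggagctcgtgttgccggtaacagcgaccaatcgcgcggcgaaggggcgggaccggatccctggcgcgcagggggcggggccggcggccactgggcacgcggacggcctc
The E-box, read on both strands, was found in 6.02% of 32851 windows of this length and the D-box in 0.819%. RefSeq windows were matched for 9 of the 11 dusk-phase genes. An E-box lay in 2 of them, Per1 and Tef, and a D-box in 1, Per3. Among the 7 antiphase genes Cry1 alone had an E-box. The RORE, the element bound by Ror and Rev-erb receptors, read on both strands, was in 0.350% of windows and in none of these genes' windows. A missing match says only that these letters are absent from this window.

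Among the output factors, Dbp, a PAR-domain transcription factor with one of the steepest rhythms in liver, had signals of 5259, 5997 and 1886 in the lactation group and 1739, 161 and 888 in control. The arrays did not overlap, though replicate 6 lay close to control replicate 1. The difference was 2.63 (SE 0.76). Hlf, of the same family, had 1075, 1103 and 588 against 517, 286 and 425, a difference of 1.16 (SE 0.30). Tef had 2489, 3023 and 1373 against 1312, 1191 and 1262, a difference of 0.80 (SE 0.27).

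The Period genes, the negative arm of the clock, differed in the same direction. Per2 had 294, 675 and 277 against 140.4, 145 and 119, a difference of 1.5 (SE 0.40). Per1 had 256, 271 and 314 against 177, 130.5 and 163, a difference of 0.84 (SE 0.29). Per3, whose promoter holds both D-boxes shown above, had 321, 710.0 and 191 against 189, 132 and 120.1, a difference of 1.29 (SE 0.56). Bhlhe40, a repressor in the same loop, had 0.96 (SE 0.26), and Nr1d2, the nuclear receptor Rev-erb beta, 0.65 (SE 0.21). Cry2 and Nr1d1 overlapped with control, at differences of 0.63 and 0.62. Usp2, a rhythmic ubiquitin protease, had 683, 1015 and 169 against 215, 116 and 100.3. Replicate 6 fell within the control range, and the difference was 1.85 (SE 0.69).

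On the opposite side stood the positive arm. Arntl had 341, 239 and 794 against 862, 987 and 1017, a difference of -1.25 (SE 0.41). Clock had 898, 881 and 1527 against 1585, 1458 and 1600, with overlap through replicate 6 and a difference of -0.54 (SE 0.23). Npas2, a partner of Arntl that can take the place of Clock, had 39.8, 9.50 and 74.6 against 60.1, 180.2 and 145. Its difference was -1.93 (SE 0.73). Cry1, a repressor with a later peak than the Period genes, had 342, 357 and 348 against 596, 806 and 644. Its lactation values lay close together, and the difference was -0.95 (SE 0.23). Nfil3, E2f8 and Rora overlapped with control, at -0.36, -0.19 and 0.10.

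The arrays took different parts in this. The median of the 11 dusk-phase genes, against the control mean, was 1.13, 1.27 and 0.57 for lactation replicates 4, 5 and 6, and 0.37, -0.25 and 0.07 for control. The antiphase median was -0.78, -0.92 and -0.26 against -0.14, 0.05 and 0.06. Replicate 6 was thus the nearest to control in both lists; without it the antiphase median was -0.80. The pregnancy arrays of day 150, set against the same controls, had dusk-phase medians of 0.19, 1.27 and 1.01, and a difference of 0.85 over the list. In the direct test between both exposed groups none of the 18 clock genes was called, and the dusk-phase median was 0.31.

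At day 21, on arrays that share none with these, the 11 dusk-phase genes were again all positive after lactation exposure, with a median of 0.96 and array medians of 1.35, 0.73 and 0.81 against -0.27, -0.01 and 0.18 in control. The antiphase median at day 21 was -0.23, with 4 of 7 genes negative. The time of day at which each pool was sampled was not given in the sources used here and its part was not tested. On the lactation and control arrays of day 150 the 3′/5′ ratios overlapped only through control replicate 2. It had the highest of both ratios among these arrays and the lowest dusk-phase median. Control replicates 1 and 3 lay below every lactation array in both ratios. With both ratios as covariates, all 11 dusk-phase differences were positive with a median of 1.29, and 10 passed an unadjusted p under 0.05; the antiphase median was -0.39. Without replicate 4 the medians were 0.91 and -0.49.

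**Figure D2:**
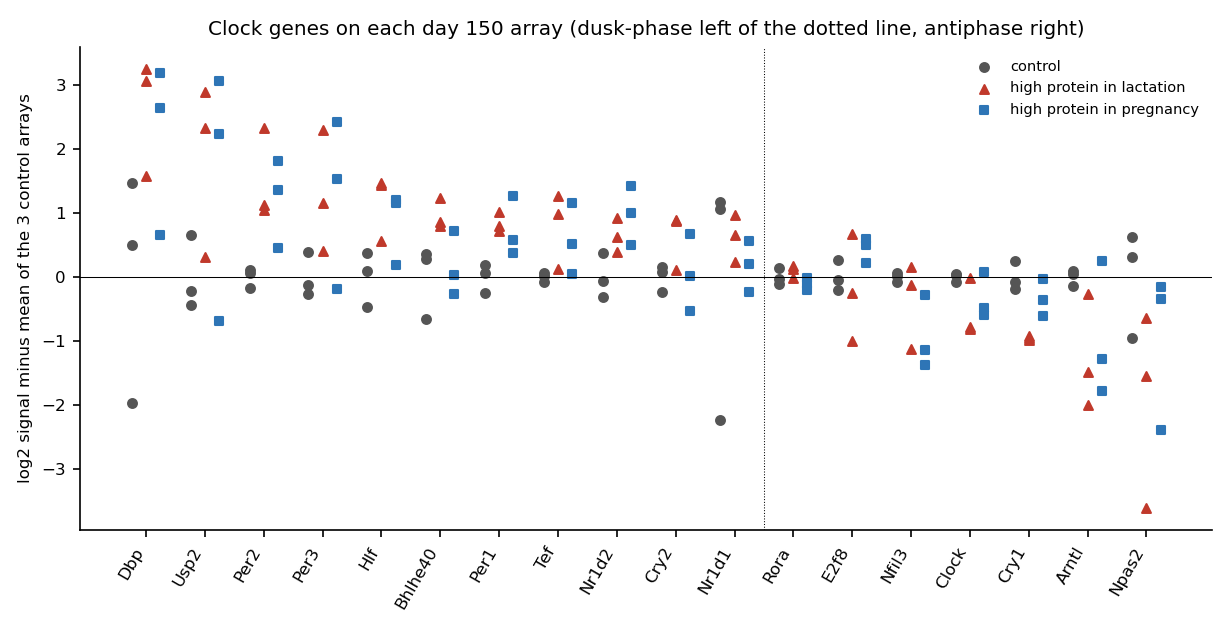
Log2 signal of 18 clock genes on each of the 9 day 150 arrays, minus the mean of the 3 control arrays (y axis), by gene (x axis) and maternal diet group; each point is 1 array. Dusk-phase genes such as Dbp and Per2 lie above control in the lactation group and Cry1 and Arntl below it, while the pregnancy arrays spread between control and the lactation arrays or beyond them.

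The comparison with day 21 asks which part of the response seen at the end of suckling was still there in the adult. At day 21, 19 genes were called against control (0.172%), and those livers were measured on other arrays. The count was 10 without day 21 control replicate 2, the array with Xist. Of the 19, 15 had the same sign at day 150 and none was called there. All 19 had a smaller absolute difference at day 150, but they were chosen by their day 21 values, which that choice tends to enlarge, so this is a description; the test of the difference between days called 1 of them. At an unadjusted p under 0.05 at day 150 stood 4 of them, Elovl3, Rab32, Ppat and Rdm1, where 851 of all 11018 genes did so. Across all genes the differences at day 21 and day 150 had a correlation of 0.22.

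Elovl3, an elongase of very long chain fatty acids that is rhythmic and higher in males, differed by -2.58 at day 21. At day 150 its signals were 7118, 3544 and 11358 against 11865, 20959 and 17074. All 3 lactation arrays lay below control, by -1.30 (SE 0.41, adjusted p 0.479). The 95% interval at day 150 was -2.16 to -0.43, and the test of the difference between days did not pass (adjusted p 0.929). Rab32, a small GTPase, differed by -1.06 at day 21 and by -0.40 (SE 0.14) at day 150. Ppat, the first enzyme of purine synthesis, differed by 0.94 and 0.56 (SE 0.19), and Rdm1, a DNA repair factor, by -1.0 and -0.47 (SE 0.17).

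Mup3, a major urinary protein made in male liver under growth hormone, differed by -3.04 at day 21. At day 150 its signals were 23580.0, 15440.4 and 14423 against 14259, 17098 and 19034. The adult groups overlapped wholly, with a difference of 0.06 (SE 0.29). Mup3 probe sets can pick up the near-identical genes of the Mup cluster, so the value belongs to the family. The difference between the days was itself tested for every gene and called for 2 of them (0.0182%): Mup3 at 3.10 (adjusted p 0.0060) and Mycn at 4.2 (adjusted p 0.027). For the other 18 genes called at day 21 that test was not passed on the signals as deposited. With 50 added to every signal Bex1 passed it, at -2.76 (adjusted p 0.0031), and Mycn did not (adjusted p 0.296).

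The remaining day 21 genes did not pass an unadjusted p under 0.05 in the adult. Ifrd1, a coregulator of transcription, differed by 1.54 at day 21 and 0.35 (SE 0.20) at day 150. Bex1, known from regenerating and embryonic tissue, differed by 2.69 and -0.70 (SE 0.50), and Abcc4, an export pump, by 1.55 and 0.13 (SE 0.25). The day 150 means of Bex1, 32.3 in the lactation group and 52.4 in control, lay below the filter level of 57.5. Slco1a1, a male-biased uptake carrier, differed by -1.0 and -0.03 (SE 0.14), and Ces1f, a carboxylesterase, by -1.02 and -0.17 (SE 0.15). Acsl4, which activates arachidonic acid, differed by 0.86 and 0.08 (SE 0.14). Cyp2d13, Cyp4v3, Apon, Mettl26, Mettl8, Mme, Rad51b and Gna14 had day 150 differences between -0.18 and 0.27. The male-biased list, 24 measured genes, had a median of -0.51 with 3 positive at day 21 and 0.00 with 12 positive at day 150. The day 150 split moved with single arrays: it was -0.10 with 7 positive without lactation replicate 4 and -0.14 with 5 positive without control replicate 1. The female-biased list, 33 genes, had a median of -0.01 at day 150, which was -0.27 without control replicate 2, -0.26 without lactation replicate 6 and 0.29 without control replicate 3. Single members went both ways: Cyp17a1, a steroid hydroxylase, had 143, 101 and 154 against 27.9, 18.2 and 23.2, a difference of 2.52 (SE 0.74), and Hao2, an oxidase of long chain hydroxy acids, had 2.80, 37.2 and 48.9 against 182, 44.5 and 3570, a difference of -4.16 (SE 1.09). The Hao2 groups overlapped, and control replicate 3 alone lay far above the rest. Neither was called.

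**Figure D3:**
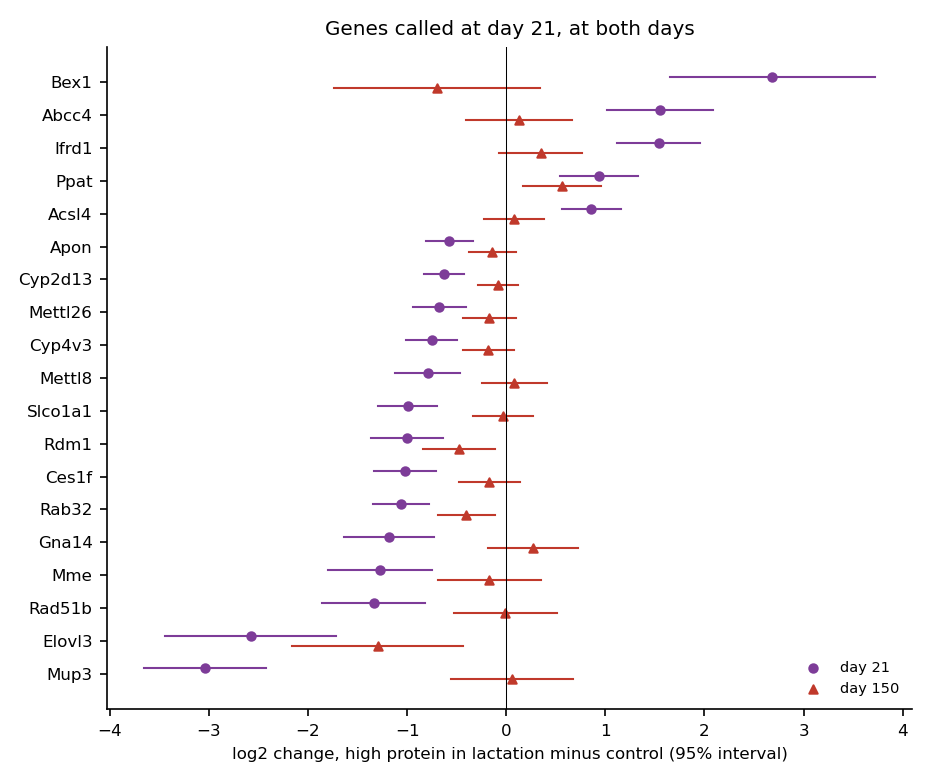
Log2 difference from control with its 95% interval (x axis) for the 19 genes called at day 21, at day 21 (circles) and at day 150 (triangles). All 19 lie nearer to 0 at day 150, and the intervals of Elovl3, Rab32, Ppat and Rdm1 still exclude 0.

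Exposure in lactation and in pregnancy were compared directly at day 150, without the controls. In this test 79 genes were called (0.717%), 49 higher and 30 lower in the lactation group. Against the shared controls, 290 genes were called after exposure in pregnancy (2.63%), a count that was 2 without pregnancy replicate 2, 9 without control replicate 1 and 5 with the 3′/5′ covariates. Of the 79 genes 39 were also called in pregnancy against control and 0 in lactation against control, and for 68 the control mean lay between those of the exposed groups. The 79 were chosen by their distance between the exposed groups, and the same pregnancy arrays entered the test against control. These counts partly follow from that choice and are a description only.

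Fads6, a putative fatty acid desaturase, had 2386, 2253 and 2306 in the lactation group, 1998, 1585 and 1765 in control and 1113, 1010.2 and 1203 in the pregnancy group. The 3 groups did not overlap. The difference between the exposed groups was 1.07 (SE 0.14, adjusted p 0.0029), and it was called under each alternative run, with adjusted p at most 0.048. Slc37a4, the carrier that brings glucose 6-phosphate to the endoplasmic reticulum for the last step of glucose output, had 7689, 7282 and 5918 in the lactation group, 4432, 5750.2 and 4496 in control and 3224, 3716 and 3085 in the pregnancy group. Again the lactation arrays were the highest and the pregnancy arrays the lowest. The difference was 1.06 (SE 0.14, adjusted p 0.0029), and 0.51 (SE 0.14, adjusted p 0.406) against control. In a fit of the compared arrays alone its adjusted p was 0.052.

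For Slc39a4 and Tenm3 the lactation arrays overlapped with control and the pregnancy arrays lay below both. Slc39a4, an importer of zinc, had 1028, 996 and 1001 against 587, 538 and 479 after pregnancy, with control at 1074, 884 and 1169. The difference was 0.92 (SE 0.16, adjusted p 0.021). Tenm3, a teneurin of the cell surface, had 492, 483 and 501 against 269, 251 and 282, a difference of 0.88 (SE 0.14, adjusted p 0.013). Tmie, a transmembrane protein of the inner ear, had 174, 79.8 and 117 against 17.0, 19.3 and 8.30, a difference of 3.07 (SE 0.46, adjusted p 0.0097) between low signals; its difference from control was -0.79 (SE 0.46). Ctdspl, a small phosphatase, had 1.19 (SE 0.19, adjusted p 0.017), and 0.65 against control.

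The genes lower than after pregnancy exposure included Kpna3, an importin, with 1631, 1780.5 and 1899 against 2579, 2682 and 2674 and a difference of -0.58 (SE 0.11). Twistnb, an RNA polymerase I subunit, had -0.55 (SE 0.10), Lztfl1, a regulator of ciliary transport, -0.62 (SE 0.12), and Tasor, of the HUSH silencing complex, -1.02 (SE 0.19). Zfp654 had -0.85 (SE 0.16) and Exoc5, of the exocyst, -0.64 (SE 0.12). For these 6 the adjusted p was 0.031, and their control arrays lay at or near the lactation level.

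The count of 79 depended strongly on single arrays. It was 3 without lactation replicate 4, 251 without lactation replicate 5, 2 without lactation replicate 6, and 22, 3 and 2 without pregnancy replicates 1, 2 and 3. With the 3′/5′ ratios as covariates 7 genes were called and in a fit of the compared arrays alone 1. By equal 75th percentiles the split turned to 25 higher and 60 lower.

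**Figure D4:**
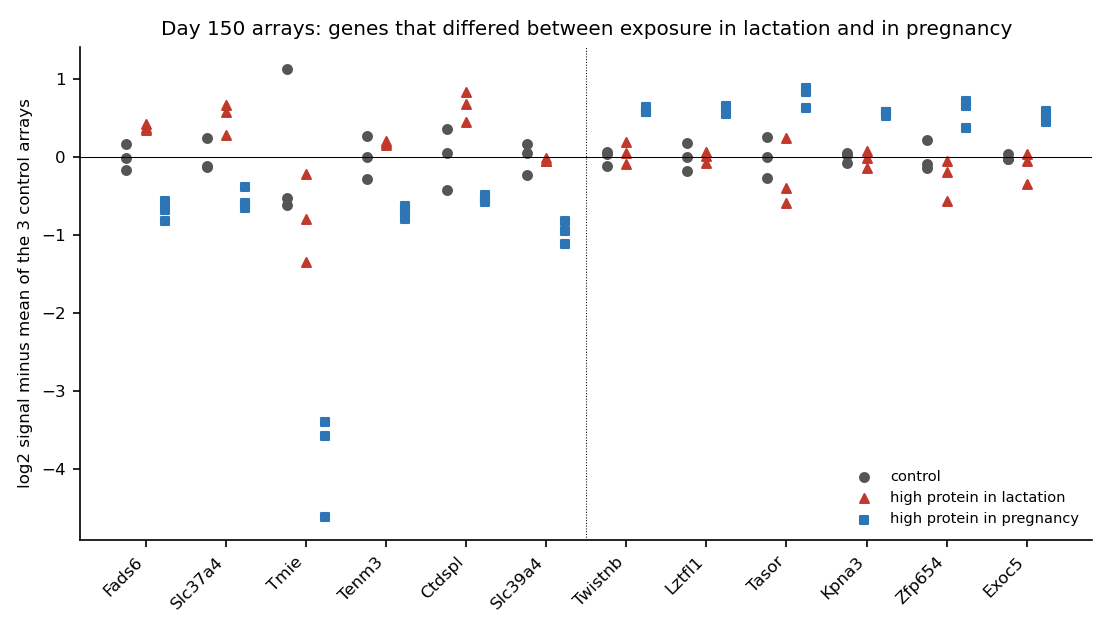
Log2 signal minus the mean of the 3 control arrays (y axis) for the 6 genes with the smallest p in each direction between exposure in lactation and in pregnancy (x axis), on each of the 9 day 150 arrays. For Slc39a4 and Kpna3 the lactation arrays lie at the control level with the pregnancy arrays apart, and for Fads6 and Slc37a4 the lactation arrays lie above control and the pregnancy arrays below it.

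Sterol and fat synthesis genes were mostly higher after exposure in lactation than in pregnancy, with 1 call. For cholesterol synthesis, 21 measured genes, the median was -0.07 with 6 positive in the lactation group against control (0.06 with the 3′/5′ covariates, 0.09 without control replicate 1 and 0.10 without lactation replicate 5), and -0.59 with 4 positive in the pregnancy group against the same controls. In the direct comparison 19 of 21 were higher in the lactation group, by a median of 0.41. Over all genes the median was 0.0076, and 5636 of 11018 were positive. Of the 21 genes 1 was called, where 0.717% of all genes were. This was Lss, lanosterol synthase, with 1674, 759 and 1350.5 against 569.5, 468 and 443, a difference of 1.29 (SE 0.28, adjusted p 0.044). The number of calls in this comparison depended strongly on single arrays, as given above. For lipogenesis, 20 genes, the medians were 0.02 and -0.40, and 19 of 20 were higher in the direct comparison with none called. Fasn, fatty acid synthase, had a difference from control of 0.00 (SE 0.54), its signals spreading from 1633 to 3728 in the lactation group and from 1785 to 4247 in control.

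Protein handling was looked at because the maternal diet differed in protein. None of the 14 urea cycle and ammonia genes measured passed an unadjusted p under 0.05, and their median was 0.01, with 7 positive (-0.07 with 4 positive without replicate 4). Cps1, which fixes ammonia in the first step of the urea cycle, had 42184, 29616 and 29398 against 31403, 37576 and 38368, a difference of -0.10 (SE 0.15). Of 44 amino acid breakdown genes 29 were negative, with a median of -0.07. Haao, of tryptophan breakdown, had -0.40 (SE 0.14) and Gldc, which cleaves glycine, -0.66 (SE 0.23). None was called.

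Of 20 amino acid carriers measured, 14 were positive with a median of 0.20, where 5553 of 11018 genes were positive. At an unadjusted p under 0.05, 3 were higher, where 4.37% of all genes were, and none was called. Slc7a5, the large neutral amino acid exchanger, had 157, 114 and 130.3 against 104, 36.4 and 47.5, a difference of 1.23 (SE 0.51). Slc1a2, a glutamate carrier of perivenous hepatocytes, had 878, 909 and 484 against 440.0, 340.5 and 447, a difference of 0.84 (SE 0.38). Slc38a3, which moves glutamine, had 0.26 (SE 0.12). Without replicate 4 the list median was 0.11 and without control replicate 3 also 0.11. The ATF4 and serine synthesis list, which answers to amino acid shortage, had a median of 0.01 over 26 genes. Asns, asparagine synthetase, had 275, 637 and 297 against 362, 146 and 122, with overlap and a difference of 1.0 (SE 0.43).

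Glucose output genes had a median of 0.00 over 21 genes, 11 of them positive. Pck1, the main cytosolic enzyme of glucose synthesis, differed by -0.15 (SE 0.19). Pck2, its mitochondrial form, had 123, 97.8 and 90.2 against 8.2, 77.7 and 57.2, a difference of 1.63 (SE 0.55) at low signal, with control replicate 1 the lowest by far. Gys2, liver glycogen synthase, had 0.51 (SE 0.16). Cyp7a1, the rate-limiting enzyme of bile acid synthesis, had 2936, 3070.3 and 1961 against 1449, 1752 and 1187. These did not overlap, with a difference of 0.85 (SE 0.44, adjusted p 0.673). Klb, the coreceptor for FGF15 that restrains Cyp7a1, had 1583, 1795 and 1752 against 1210 to 1375, a difference of 0.40 (SE 0.11).

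Small differences of one sign ran through several lists of highly expressed genes. Of 64 oxidative phosphorylation genes, 56 were negative with a median of -0.12; 9 passed an unadjusted p under 0.05 and 12 did not overlap, all on the lower side, where 3.36% and 6.28% of all genes did so. Besides Ndufb6 these included Ndufb10 (-0.35, SE 0.11), Ndufa2 (-0.33, SE 0.12) and Atp5o (-0.28, SE 0.10). The list's array medians were 0.05, -0.21 and -0.23 for lactation replicates 4, 5 and 6, so that replicate 4 lay with the controls, which ranged from -0.06 to 0.07. Without replicate 4 the median was -0.21 and 61 of 64 were negative. Proteasome subunits, 31 genes, had 29 negative and a median of -0.10, Psmb2 leading with -0.37 (SE 0.14). The size of both depended on scaling: by quantile normalization the medians were -0.06 with 47 negative and -0.04 with 25 negative, and by equal 75th percentiles -0.18 and -0.15, with 62 and 31 negative. At day 21 the oxidative phosphorylation median was -0.26, with 63 of 64 genes negative. The pregnancy group of day 150, set against the same controls, had a median of -0.14 in both lists. In the direct comparison, lactation minus pregnancy, the medians were 0.01 for oxidative phosphorylation and 0.03 for the proteasome.

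Conjugating enzymes of drug metabolism had 29 of 37 genes negative, with a median of -0.13 and 5 genes at an unadjusted p under 0.05, all lower, where 3.36% of all genes were. Glutathione S-transferases made up all 5. Gstm3 had 491, 362 and 1786 against 2544, 847 and 3091, with overlap and a difference of -1.46 (SE 0.47). Gstz1, which also acts in tyrosine breakdown, had 9132, 8693 and 8954 against 10908, 10783 and 11176, tight in both groups, with a difference of -0.30 (SE 0.11). Gsta3, Gstm1 and Gstm2 had -0.39 (SE 0.15), -0.39 (SE 0.19) and -0.48 (SE 0.23). The genes of the Gstm cluster are near copies and their probe sets may share signal. With the 3′/5′ covariates 1 of the 37 passed the unadjusted p. By quantile normalization the list median was -0.07 with 27 negative, and by equal 75th percentiles -0.18 with 31 negative. Fatty acid oxidation genes had 20 of 29 negative and a median of -0.12. On the lower side 8 did not overlap and 1, Cyp4a14, passed an unadjusted p under 0.05. The shares over all genes were 6.28% and 3.36%, so that 1 of 29 was near the background. By quantile normalization the median was -0.06 with 18 negative, and by equal 75th percentiles -0.17 with 21 negative. The pregnancy group, set against the same controls, had medians of -0.14 for conjugating enzymes and -0.16 for fatty acid oxidation. Lactation minus pregnancy, the medians were -0.04 and 0.06.

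**Figure D5:**
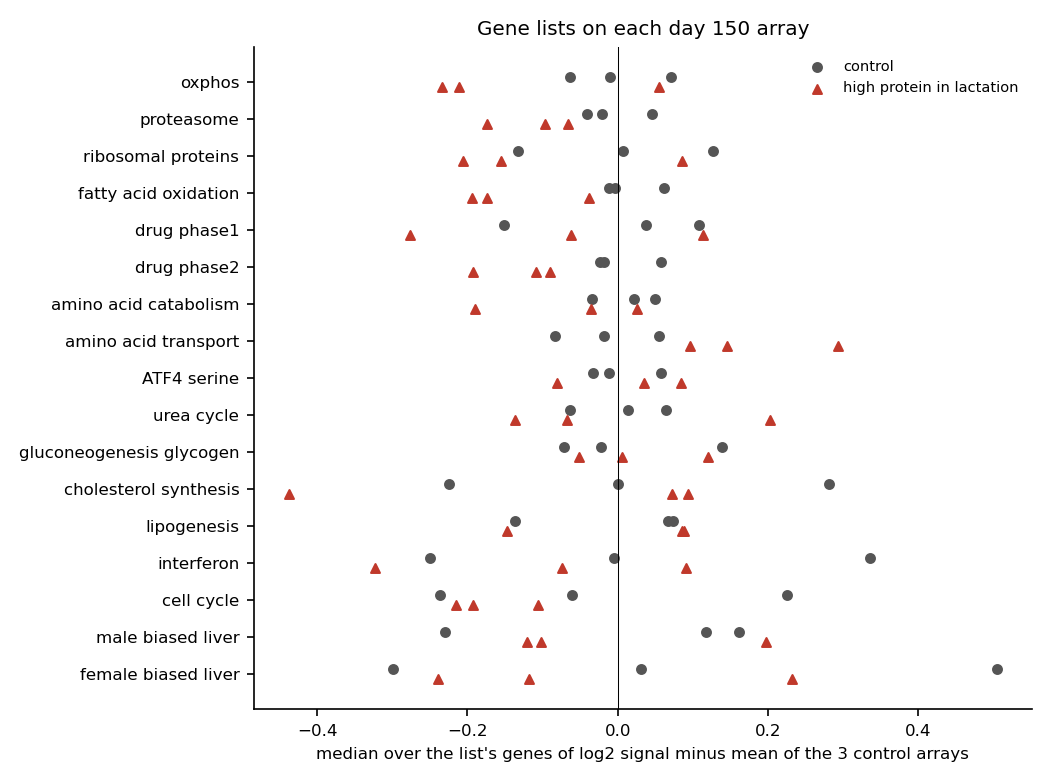
Median over each gene list of log2 signal minus the mean of the 3 control arrays (x axis) for 17 lists (y axis), with a point for each of the 3 control and 3 lactation arrays of day 150. Proteasome, fatty acid oxidation and drug phase 2 medians of the lactation arrays lie left of all controls and amino acid transport right of them, while oxphos has replicate 4 among the controls.

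Growth and DNA methylation genes are often studied where early diet is linked to adult liver, and here none was called. Igf1, the growth hormone dependent growth factor of liver, had 21213, 15566 and 16344 against 16788, 20022 and 20572, a difference of -0.12 (SE 0.13). Dnmt1, which maintains DNA methylation, differed by -0.15 (SE 0.19). Dnmt3a, which sets new methylation, had 459, 439 and 283 against 203, 280 and 363. These overlapped, with a difference of 0.49 (SE 0.22, adjusted p 0.610) and a 95% interval of 0.03 to 0.95. Dnmt3b differed by -0.58 (SE 0.35). Over the 14 measured genes of this list the median was -0.02, with 7 positive.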

How the data were processed

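Liver RNA pools were hybridised to Affymetrix whole-genome mouse arrays. The authors' deposited intensity values are MAS5 signals on a linear scale, from GCOS 1.4 per the submitters' processing notes, each array scaled to a trimmed mean of 500. Detection calls were not used here. Log2 values were taken with 0 added and no further scaling. Of 45101 probe sets, 34958 had 1 gene symbol (932 several, 9211 none). Probe sets at or above the median mean log2 signal were kept, and the brightest of each gene was tested (11018 genes). A linear model with a mean-variance trend (limma 3.58.1, R 4.3.3) was fitted to all 18 arrays in 6 groups, with 12 residual degrees of freedom and two-sided Benjamini-Hochberg adjustment over all genes; 5 comparisons were made. The scripts were tested on simulated data. Gene lists and members were chosen with earlier results of these data known. Genes were named by smallest p among those without overlap between groups (12 per direction, or 6), called genes, up to 4 per list, and a set of genes always given (among them Cyp7a1, Igf1 and Dnmt1). P-values measure the spread between pools, and 3 arrays a group limit the precision. If a group and day held only 4 to 5 animals, as by the series design, 3 pools of 3 would share animals. The arrays would then not be independent, and SEs and p-values could understate the spread between animals. Promoters are from RefSeq, GRCm38.p6. Alternatives changed the filter, scaling, offset, probe sets, trend, weights, threshold, arrays fitted and covariates, and left out each array.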

Additional observations from a re-analysis of the deposited data

Results flagged for a closer look

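The response to exposure in lactation differed between day 150 and day 21, by the interaction term in limma, for 2 genes. For Mup3 the log2 difference at day 150 minus that at day 21 was 3.10 (adjusted p 0.0060); its day 150 difference was 0.06. For Mycn it was 4.2 (adjusted p 0.027), from -0.61 at day 21 to 3.59 at day 150. Among the 21 alternatives run for Mycn the interaction was not called in 14, and its adjusted p lay between 0.0076 and 0.432. For Mup3 it was not called in 2 of 22, with adjusted p between 0.00016 and 0.232. Groups of 3 arrays were not tested for outlying values.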

How the results depend on the processing

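No single gene named with alternatives changed sign in any run. Among the gene lists run under all alternatives, the medians of 5 did. Cell cycle (-0.20) was 0.02 at the 70th percentile filter and without control replicate 3. Cholesterol synthesis (-0.07) ranged from -0.16 to 0.10 and lipogenesis (0.02) from -0.04 to 0.09. Male-biased genes (0.00) ranged from -0.14 to 0.08 and female-biased genes (-0.01) from -0.27 to 0.29. Other lists were run under fewer alternatives, and some of these changed sign too. Without lactation replicate 4, urea cycle (0.01) was -0.07, ATF4 and serine synthesis (0.01) -0.02 and acute phase proteins (0.11) -0.12. The count for lactation against control (1) was 0 with the filter at the 70th percentile, with 50 added and with the compared arrays alone, 2 with every kept probe set (Mycn and, lower, Igf2bp3) and with the 3′/5′ covariates, and 1 to 3 with each array left out; Mycn was called in every leave-out. Against pregnancy (79) it was 38 without a filter, 130 at the 70th percentile, 16 without trend, 126 with array weights, 418 at an adjusted p under 0.10, 1 with the compared arrays, 7 with the covariates, 3 without the 2 arrays with Xist signal, lactation day 150 replicate 4 and control day 21 replicate 2 (an alternative chosen after seeing the data) and 2 to 251 with arrays left out. The difference between days (2) was 1 at the 70th percentile, with array weights and without the arrays with Xist signal. It was 0 with the compared arrays and with the covariates, and 1 to 3 with arrays left out. With 50 added the count was again 2, Bex1 taking the place of Mycn. At day 21 (19) it was 36 by equal 75th percentiles (5 higher and 31 lower, against 5 and 14), 11 without trend, 56 at 0.10, 8 with the compared arrays, 9 with the covariates and 6 to 79 with arrays left out; by quantile normalization it was 24 (3 and 21). For pregnancy against control (290) it was 146 without a filter, 72 without trend, 1053 with array weights, 763 at 0.10, 473 with the compared arrays, 5 with the covariates, 591 without the arrays with Xist signal and 2 to 162 with arrays left out; by equal 75th percentiles the split was 142 higher and 57 lower, against 168 and 122. The equal 75th percentiles moved the median of all genes at day 21 by -0.12. The cause of these changes was not tested. The dusk-phase median was 0.76 to 1.29 under all 16 alternatives, and the antiphase median -0.80 to -0.39 (-0.80 to -0.49 with arrays left out). No paired analysis was possible for day 150 because the lactation arrays are numbered 4 to 6 and the controls 1 to 3. At day 21 the replicate block gave 20 calls; same-numbered arrays did not deviate together (correlations -0.09, 0.03 and -0.11). Low signals, as of Mycn and Tmie, limit the sizes given.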
